A study of Mus musculus with 6 samples.

Results

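Protocadherins are cadherin-like adhesion proteins of the cell surface, best known from the nervous system. The genes described here are the protein-coding genes of the count table whose name begins with *Pcdh*: 64 of 40166 genes. Of these, 52 are clustered protocadherins, named *Pcdha* (9 genes, alpha), *Pcdhb* (22 genes, beta) or *Pcdhg* (21 genes, gamma) followed by a number or letter, and 12 are non-clustered. RNA was sequenced from 6 subcutaneous tumors grown in C57BL/6 mice of 8 to 10 weeks from YUMM3.3, a mouse melanoma cell line with mutant Braf. The 3 vehicle mice received water and the 3 RGS mice received Rigosertib (RGS) at 300 mg/kg, by oral gavage, and all tumors were taken at 17 days of treatment. The paper describes RGS as a small-molecule mimic of RAS that may block signaling downstream of RAS. It also mentions other reported mechanisms and a debate over effects on microtubules. All tumors came from the same cell line, the labels used here do not give the sex of these mice, and each tumor is 1 library. Nothing beyond the labels says how independent the tumors of a group were, so p-values measure the spread between these samples.

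In the clusters, each alpha or gamma gene has a promoter and a large variable exon of its own, which is spliced to constant exons that all genes of that cluster share. Beta genes consist of a single exon and have no constant part. Neurons pick a few variable exons each through CTCF, cohesin and DNA methylation, and the resulting proteins bind like with like, which lets a neuron tell its own branches from those of others. The non-clustered genes stand alone in the genome. Their main family is the delta-protocadherins, divided by their tails into delta-1 (*Pcdh1*, *Pcdh7*, *Pcdh9*, *Pcdh11x*) and delta-2 (*Pcdh8*, *Pcdh10*, *Pcdh17*, *Pcdh18*, *Pcdh19*), which act in cell adhesion, migration and axon growth.

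The libraries held between 13837932 and 32555494 counts. The shallowest vehicle library was deeper than the deepest RGS library, and depth therefore cannot be told apart from treatment. Some defining markers of several cell types were at or near 0 in all tumors, while other markers of the same lists were counted. *Dct*, *Tyr* and *Mlana* of the melanocyte lineage and *Cd3d*, *Cd3e* and *Cd8a* of T cells had no counts, and *Csf1r* and *Adgre1* of macrophages had at most 1 count in a tumor, whereas *Mitf* lay between 4.28 and 10.5 CPM (counts scaled to a library of 1000000; adjusted p = 0.440, edgeR). Of the endothelial markers *Emcn* was at 0, and *Pecam1* did not exceed 1.04 CPM. *Vwf* was counted in every tumor, at 1.55 to 3.10 CPM with vehicle and 2.63 to 3.09 CPM with RGS. The summed macrophage list was at 212 to 284 CPM with vehicle and 922 to 1021 CPM with RGS. Most of it was *Laptm5*, which rose, at 153 to 219 CPM with vehicle and 834 to 952 CPM with RGS. *Cd68* of that list was at 58.8 to 64.65 CPM with vehicle and 65.4 to 87.7 CPM with RGS, and it was not called (adjusted p = 0.293, edgeR). Of 4 pericyte markers, 3 passed the filter on low values given below. Of these, 1 was higher (*Rgs5*, 1.12 to 1.43 CPM against 368 to 423 CPM) and 2 were lower. Of 6 fibroblast markers, 5 passed it, and 1 was higher (*Dcn*, 0.571 to 1.46 CPM against 6.55 to 15.7 CPM) and 3 were lower. Over all tested genes, 16.3% were higher and 16.5% lower. The summed fibroblast list was at 393 to 582 CPM with vehicle and 290 to 318 CPM with RGS. The summed endothelial, Schwann cell, keratinocyte, T cell, muscle and adipocyte lists stayed at or below 25.2 CPM in every tumor. In these 6 lists 1 endothelial (*Cdh5*), 1 T cell (*Trac*), 1 keratinocyte (*Ivl*) and 1 Schwann cell marker (*Ngfr*) was higher, and 1 Schwann cell marker (*Mbp*) was lower. Of these, *Trac* and *Ivl* passed the filter through the RGS group only, and *Mbp* through the vehicle group only. *Mbp* was at 0.855 to 1.25 CPM with vehicle and 0 with RGS. *Trac* was at 0 with vehicle and 0.612 to 1.42 CPM with RGS, and *Ivl* at 0 with vehicle and 5.87 to 19.6 CPM with RGS. *Cd4*, also a T cell marker, was not tested and had 14 counts in vehicle replicate 9 and none in any other tumor. The part of these markers in the protocadherin results was not tested. In bulk tumors, fewer cells of a type and less RNA per cell cannot be told apart.

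Of the 64 protocadherins, 19 had no counts in any tumor, 24 had at most 3 counts in every tumor, and 29 passed the filter on low values (a group median of 5 counts or more, in either group). A count of 0 is not shown to be absence of the RNA in this table: *Ppp1ca*, a phosphatase gene used in all cells, had 1 count over all 6 tumors. In edgeR's quasi-likelihood test, adjusted by the Benjamini-Hochberg method for the 15355 genes that passed, 5 of the 29 protocadherins rose with RGS (17.2%, where 16.3% of all tested genes were higher), 3 fell (10.3%, where 16.5% of all tested genes were lower), and 21 did not pass an adjusted p of 0.05. In all, 27.6% of the tested protocadherins changed, beside 32.8% of all tested genes. The values of the 3 vehicle and the 3 RGS tumors did not overlap for 12 of the 29 (41.4%), beside 45.8% of all tested genes. For the family as a whole these shares were near the background. By gene structure, 5 of the 7 tested non-clustered genes changed (*Pcdh7*, *Pcdh1* and *Pcdh17* rose, *Pcdh20* and *Pcdh18* fell), and so did 3 of the 22 tested clustered genes (*Pcdhgc5* and *Pcdhb22* rose, *Pcdhac2* fell). Whether these shares differ from each other was not tested. The median log2 fold change was 0.34 for the clustered genes and −0.43 for the non-clustered genes, with −0.05 over all genes tested. Of the 29, 7 passed the filter through 1 group only (*Pcdhac2*, *Pcdhga4*, *Pcdhga5*, *Pcdhga9*, *Pcdhga10*, *Pcdhga12* and *Pcdh20*), so these medians and counts describe the genes that passed and not the whole family. Without vehicle replicate 9 the number of higher genes went from 5 to 3, and without vehicle replicate 8, RGS replicate 11 or RGS replicate 12 the number of lower genes went from 3 to 1.

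**Figure D1:**
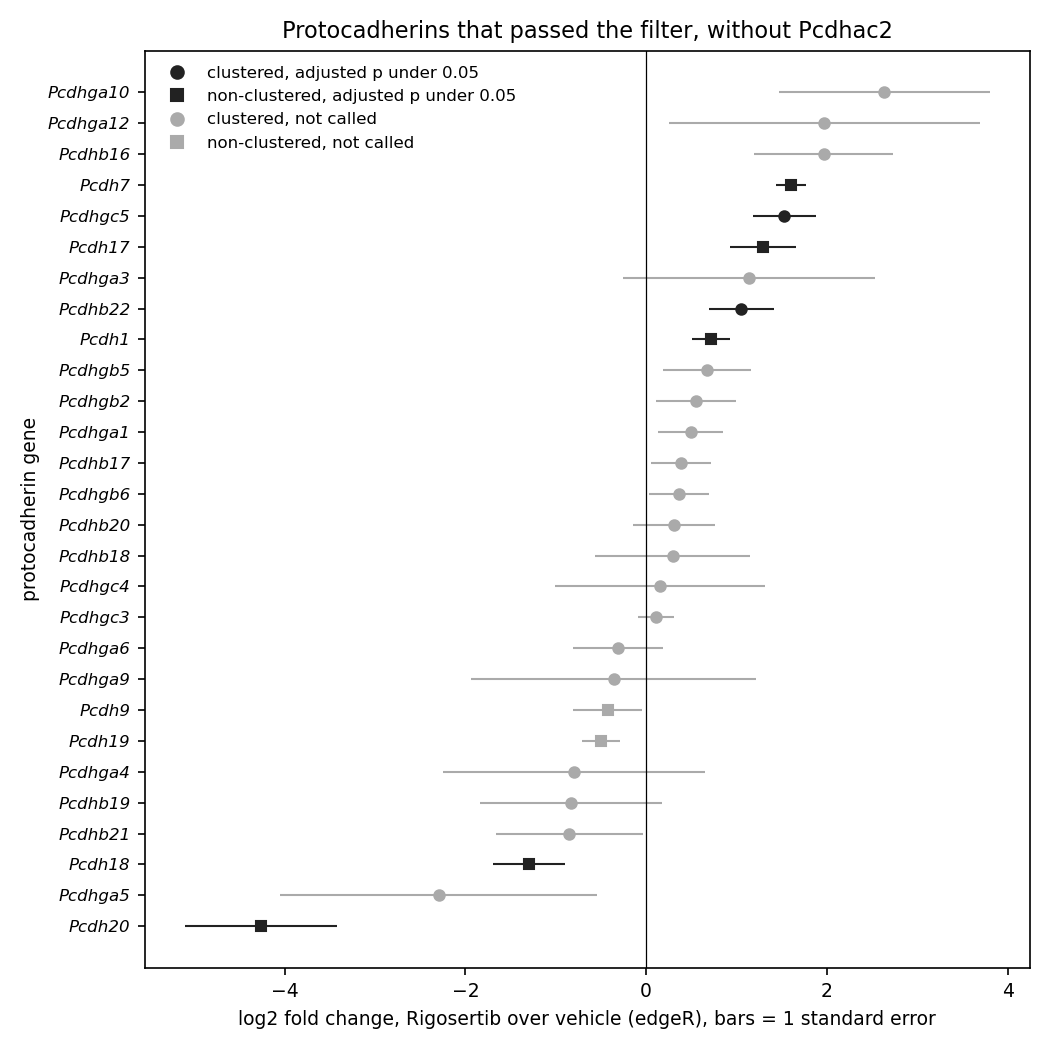
Log2 fold change of RGS over vehicle tumors (x axis) for the tested protocadherins (y axis, 1 row per gene, *Pcdhac2* left out because its RGS tumors had no counts); points are edgeR estimates from 3 tumors per group, bars 1 standard error, circles clustered and squares non-clustered genes, black an adjusted p under 0.05. The black squares reach from −4.26 (*Pcdh20*) to 1.603 (*Pcdh7*), and most clustered genes are gray with wide bars.

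For 4 of the 5 non-clustered genes that changed, the bases before the start are shown from RefSeq's promoters (build GRCm38.p6) because these genes moved in both directions, and so that a reader can compare the sequence from which each is transcribed. *Pcdh7* and *Pcdh18* are shown only up to where the gene begins in the annotation of the count table. Each sequence is written 5′ to 3′ on the strand of its gene, with capitals marking the GC box (GGGCGG or its reverse complement CCGCCC).
Pcdh7 (rose), chr5:57717831-57717966, plus strand: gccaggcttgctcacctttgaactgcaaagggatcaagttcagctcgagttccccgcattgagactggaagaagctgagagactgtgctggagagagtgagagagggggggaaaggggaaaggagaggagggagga
Pcdh17 (rose), chr14:84443313-84443562, plus strand: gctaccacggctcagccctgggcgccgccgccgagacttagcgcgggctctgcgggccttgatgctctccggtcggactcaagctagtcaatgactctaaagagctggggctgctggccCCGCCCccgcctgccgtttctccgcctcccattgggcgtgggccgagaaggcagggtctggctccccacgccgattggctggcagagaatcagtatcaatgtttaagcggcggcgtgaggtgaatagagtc
Pcdh18 (fell), chr3:49757326-49757566, minus strand: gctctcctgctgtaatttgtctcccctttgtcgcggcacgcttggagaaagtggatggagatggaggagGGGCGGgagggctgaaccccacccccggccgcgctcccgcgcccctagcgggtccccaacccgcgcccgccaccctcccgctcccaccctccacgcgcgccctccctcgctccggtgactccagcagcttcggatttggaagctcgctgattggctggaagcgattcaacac
Pcdh20 (fell), chr14:88471397-88471646, minus strand: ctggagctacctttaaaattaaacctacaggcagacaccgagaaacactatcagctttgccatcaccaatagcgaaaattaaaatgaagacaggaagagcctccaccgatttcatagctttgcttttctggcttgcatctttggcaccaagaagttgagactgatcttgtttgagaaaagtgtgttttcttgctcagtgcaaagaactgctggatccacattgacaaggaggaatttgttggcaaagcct
Over the 250 bases before the RefSeq start, GC content was 58.4% for *Pcdh7*, 64.8% for *Pcdh17*, 68.0% for *Pcdh18* and 42.4% for *Pcdh20*, with a median of 52.4% over 32851 promoters. The number of CpG dinucleotides was 7 for *Pcdh7*, 21 for *Pcdh17*, 23 for *Pcdh18* and 3 for *Pcdh20* (median of all promoters 6, quartiles 2 and 16). *Pcdh17* and *Pcdh18* had CpG numbers above the upper quartile and differed in direction with RGS. Both held 1 GC box, found in 32.7% of all promoters, and *Pcdh7* and *Pcdh20* held none. None of the 4 held an AP-1 site (TGAGTCA or TGACTCA, 4.46% of promoters), the E-box CACGTG (6.02%), an M-box (CATGTG or CACATG, 12.3%), a TATA box (TATAAA or TTTATA, 12.4%) or a short CRE motif (TGACG or CGTCA, 17.8%). Both strands were searched, and a match or its lack describes these letters only.

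*Pcdh7* had the highest count of all protocadherins in each of the 6 tumors and rose with RGS. Its protein, a delta-1 protocadherin, binds the phosphatase PP1 alpha and the SET protein through its tail. The gene spans chromosome 5, 57717967 to 58133230 (GRCm38, plus strand). *Pcdh7* had 147, 113 and 122 CPM in vehicle replicates 7, 8 and 9 and 447, 359 and 355 CPM in RGS replicates 10, 11 and 12. The lowest RGS tumor was above the highest vehicle tumor. The rise was 3.04-fold (log2 fold change 1.603 ± 0.16 (SE), adjusted p = 6.10e-07, edgeR's quasi-likelihood test), and it passed the threshold in all 17 other fits, including each with 1 tumor left out (log2 fold change 1.49 to 1.72). An antisense gene, 4932441J04Rik, overlaps its exons and had 73, 27 and 17 counts with vehicle and 96, 20 and 89 counts with RGS, where *Pcdh7* had 5139, 3174 and 2847 and 9446, 4767 and 5802 counts.

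*Pcdh1*, a delta-1 protocadherin of airway epithelium that also serves as a hantavirus receptor, lies on chromosome 18 (38185914 to 38212053, minus strand), close to the clusters. It had 50.4, 38.7 and 26.4 CPM in the vehicle tumors and 56.7, 66.8 and 67.2 CPM in the RGS tumors. The groups did not overlap, but the highest vehicle tumor (50.4 CPM) and the lowest RGS tumor (56.7 CPM) were near each other. *Pcdh1* rose 1.65-fold (log2 fold change 0.72 ± 0.21 (SE), adjusted p = 0.0135, edgeR). The call was lost without vehicle replicate 9 (log2 fold change 0.52), without RGS replicate 12 (0.66) and when counts were scaled by library totals alone (0.57). *Pcdh9*, also a delta-1 gene (chromosome 14, 93013410 to 93890679, minus strand), had 14.02, 9.19 and 8.69 CPM with vehicle and 12.7, 6.03 and 4.90 CPM with RGS. Its groups overlapped, and it was not called (log2 fold change −0.43 ± 0.38 (SE), adjusted p = 0.421, edgeR). *Pcdh11x*, the remaining delta-1 gene, had no counts. Summed over the delta-1 genes, the level was 211, 161 and 158 CPM with vehicle and 517, 432 and 427 CPM with RGS, most of it *Pcdh7*.

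Delta-2 protocadherins differ from delta-1 in a tail that recruits the WAVE complex, a regulator of actin. Of the 5, *Pcdh17* rose, *Pcdh18* fell, *Pcdh19* was not called, *Pcdh8* had at most 5 counts in a tumor and *Pcdh10* had none. *Pcdh17*, known from axon extension and synapses (chromosome 14, 84443563 to 84539002, plus strand), had 4.25, 5.63 and 3.27 CPM with vehicle and 12.4, 11.5 and 8.51 CPM with RGS. Each RGS tumor lay above each vehicle tumor, and the rise of 2.45-fold (log2 fold change 1.30 ± 0.37 (SE), adjusted p = 0.0107, edgeR) passed the threshold in all 17 other fits.

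*Pcdh18*, whose protein binds the adaptor Dab1 (chromosome 3, 49743296 to 49757325, minus strand), had 12.2, 15.5 and 13.7 CPM with vehicle and 10.04, 3.32 and 3.30 CPM with RGS. RGS replicate 10 stood between the vehicle tumors and the other 2 RGS tumors, which were alike. *Pcdh18* fell 2.46-fold (log2 fold change −1.30 ± 0.40 (SE), adjusted p = 0.0178, edgeR), and the call was lost without vehicle replicate 8 (−1.19), RGS replicate 11 (−1.05) or RGS replicate 12 (−1.04).

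*Pcdh19*, the gene of an X-linked epilepsy, whose protein associates with N-cadherin (chromosome X, 133582860 to 133688987, minus strand), had 41.3, 29.8 and 33.2 CPM with vehicle and 24.95, 28.4 and 20.5 CPM with RGS. The groups did not overlap, by a gap of 28.4 to 29.8 CPM, and the difference did not pass the threshold (log2 fold change −0.50 ± 0.21 (SE), adjusted p = 0.0810, edgeR). It passed only where counts were scaled by library totals alone (adjusted p = 0.0342), a scaling that moved the median of all genes from −0.05 to −0.19.

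*Pcdh20* showed the largest fitted change among the non-clustered genes, a fall. It is known from cortical neurons and lies on chromosome 14 (88464743 to 88471396, minus strand). *Pcdh20* had 367, 303 and 70 counts (10.5, 10.8 and 3.01 CPM) with vehicle and 3, 0 and 18 counts (0.142, 0 and 1.10 CPM) with RGS. Vehicle replicate 9 was well below the other vehicle tumors, and RGS replicates 10 and 11 were at or below 3 counts. *Pcdh20* passed the filter through the vehicle group only, and the size of its fitted fold rests on few RGS counts. It fell 19.2-fold in the fit (log2 fold change −4.26 ± 0.84 (SE), adjusted p = 6.64e-04, edgeR), and the call held in all 17 other fits, with log2 fold changes of −6.51 to −3.76 when 1 tumor was left out. The other non-clustered genes were at or near 0: *Pcdh15* had 4 counts, all in RGS replicate 10, and *Pcdh12* had none.

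**Figure D2:**
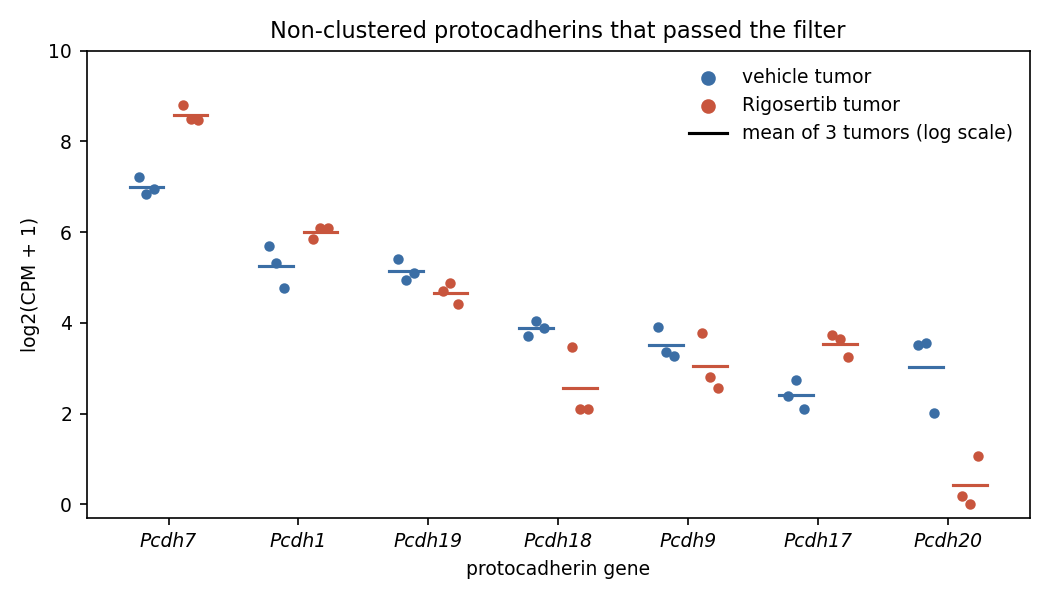
Level of the 7 tested non-clustered protocadherins (x axis) as log2(CPM + 1) (y axis), with 1 point per tumor (blue vehicle, red RGS) and a line at the mean of the 3 log values. *Pcdh7*, *Pcdh1* and *Pcdh17* are higher in the RGS tumors, *Pcdh18* and *Pcdh20* lower, and the points of *Pcdh9* overlap.

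The summed level of the 12 non-clustered genes was 280, 223 and 211 CPM with vehicle and 565, 475 and 461 CPM with RGS, 2.11 times as high on average (238 ± 36.8 against 500.1 ± 56.3 CPM, SD, n = 3). *Pcdh7* made up 52.5%, 50.8% and 58.1% of these counts in the vehicle tumors and 79.2%, 75.6% and 77.1% in the RGS tumors (lowest and highest bound of the Wilson 95% intervals, which cover counting error only, 49.6% and 79.9%). *Pcdh1* or *Pcdh19* came next in every tumor. The sum was thus set mainly by *Pcdh7*, and it moved in the opposite direction to the median log2 fold change of the 7 tested genes. Delta-2 genes summed to 57.9, 50.9 and 50.1 CPM with vehicle and 47.5, 43.2 and 32.3 CPM with RGS.

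The clustered genes lie in a row on the plus strand of chromosome 18, alpha from 36930184 to 37187661, beta from 37264938 to 37524479 and gamma from 37661793 to 37841873. How many of their reads can be told apart was read from GENCODE M21, whose exon lengths equal those of the count table for all 52. All 9 alpha and all 21 gamma genes share constant-exon bases with other members of their cluster, and the median share of a gene's exon bases that no other gene has on that strand was 46.4% for alpha and 55.4% for gamma. For the beta genes it was 100%, and only *Pcdhb21* and *Pcdhb22* overlap each other. Of the windows of 150 bases in its exons, the median beta gene had no window found identically in another gene (17 of 22 genes had none), while the median alpha gene had 53.9% and the median gamma gene 43.7%. How reads that fit several genes were counted, and whether strand was used, is not given in the sources used here. *Pcdhga7* and *Pcdhgb7* had no counts although they hold the same constant exons as *Pcdhgc3*, with 1099 to 4406 counts, so constant-exon reads were not counted for every member. The counts of alpha and gamma genes are therefore uncertain where they rest on shared bases.

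The alpha genes with a row in the count table had few counts. Of these 9 genes, 6 had no counts, and *Pcdha1* and *Pcdha9* had 1 count each in a single tumor. Other alpha genes, among them *Pcdhac1*, had no row used here, so the level of the whole cluster is not known. *Pcdhac2*, the C-type gene that serotonergic neurons use to space their axons, had 43, 28 and 1 counts (1.23, 0.998 and 0.0430 CPM) with vehicle and 0, 0 and 0 counts with RGS. Vehicle replicate 9 differed from the RGS tumors by a single count. *Pcdhac2* passed the filter through the vehicle group only. Its vehicle mean was 4.11 times the mean floor of 3 counts per RGS library (0.184 CPM), and vehicle replicate 9 lay below that floor. In the fit on the counts themselves it was called lower (adjusted p = 0.0234, edgeR's quasi-likelihood test). The call rests on few counts: it was lost with limma voom and without vehicle replicate 7, vehicle replicate 8 or any 1 of the 3 RGS tumors, with adjusted p up to 0.117.

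The beta genes split by position. Of the 13 genes *Pcdhb1* to *Pcdhb13*, at the end of the cluster nearest alpha, 8 had no counts, and the highest count was 19, of *Pcdhb6* in RGS replicate 10, which had none elsewhere. All 9 genes *Pcdhb14* to *Pcdhb22*, at the end nearest gamma, had counts, and 7 of them passed the filter. Their sum was 31.8, 24.9 and 16.9 CPM with vehicle and 38.3, 35.9 and 34.6 CPM with RGS, close to the sum of all 22 genes. That sum over all 22 was 1.49 times as high with RGS (24.7 ± 7.50 against 36.7 ± 2.63 CPM, SD, n = 3), and the groups did not overlap. *Pcdhb17* or *Pcdhb22* had the largest share of beta counts in every tumor, 26.9% to 44.3%.

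*Pcdhb22* was the beta gene that rose. It had 8.59, 6.56 and 3.48 CPM with vehicle and 12.6, 15.9 and 10.3 CPM with RGS, without overlap. The rise was 2.07-fold (log2 fold change 1.05 ± 0.36 (SE), adjusted p = 0.0311, edgeR). The call was lost without vehicle replicate 8 (log2 fold change 1.12), vehicle replicate 9 (0.77), RGS replicate 10 (1.07) or RGS replicate 11 (0.87), and with library totals alone (0.91), with adjusted p up to 0.123. *Pcdhb17* had 7.85, 9.55 and 5.76 CPM with vehicle and 9.80, 9.12 and 11.4 CPM with RGS. *Pcdhb20* had 5.94, 3.96 and 2.92 CPM with vehicle and 4.36, 5.73 and 5.81 CPM with RGS. Both overlapped between the groups and were not called (log2 fold change 0.39 ± 0.33 SE for *Pcdhb17*, adjusted p = 0.395, and 0.31 ± 0.45 SE for *Pcdhb20*, adjusted p = 0.649, edgeR). *Pcdhb16*, picked after its values were seen, had 1.23, 0.927 and 0.473 CPM with vehicle and 4.97, 1.43 and 3.92 CPM with RGS. Its groups did not overlap, and it missed the threshold (log2 fold change 1.96 ± 0.77 (SE), adjusted p = 0.0566, edgeR) but passed it with DESeq2, with genes of a mean of at least 1 CPM only, with counts thinned to the smallest library and without RGS replicate 11 (lowest adjusted p = 0.0181).

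**Figure D3:**
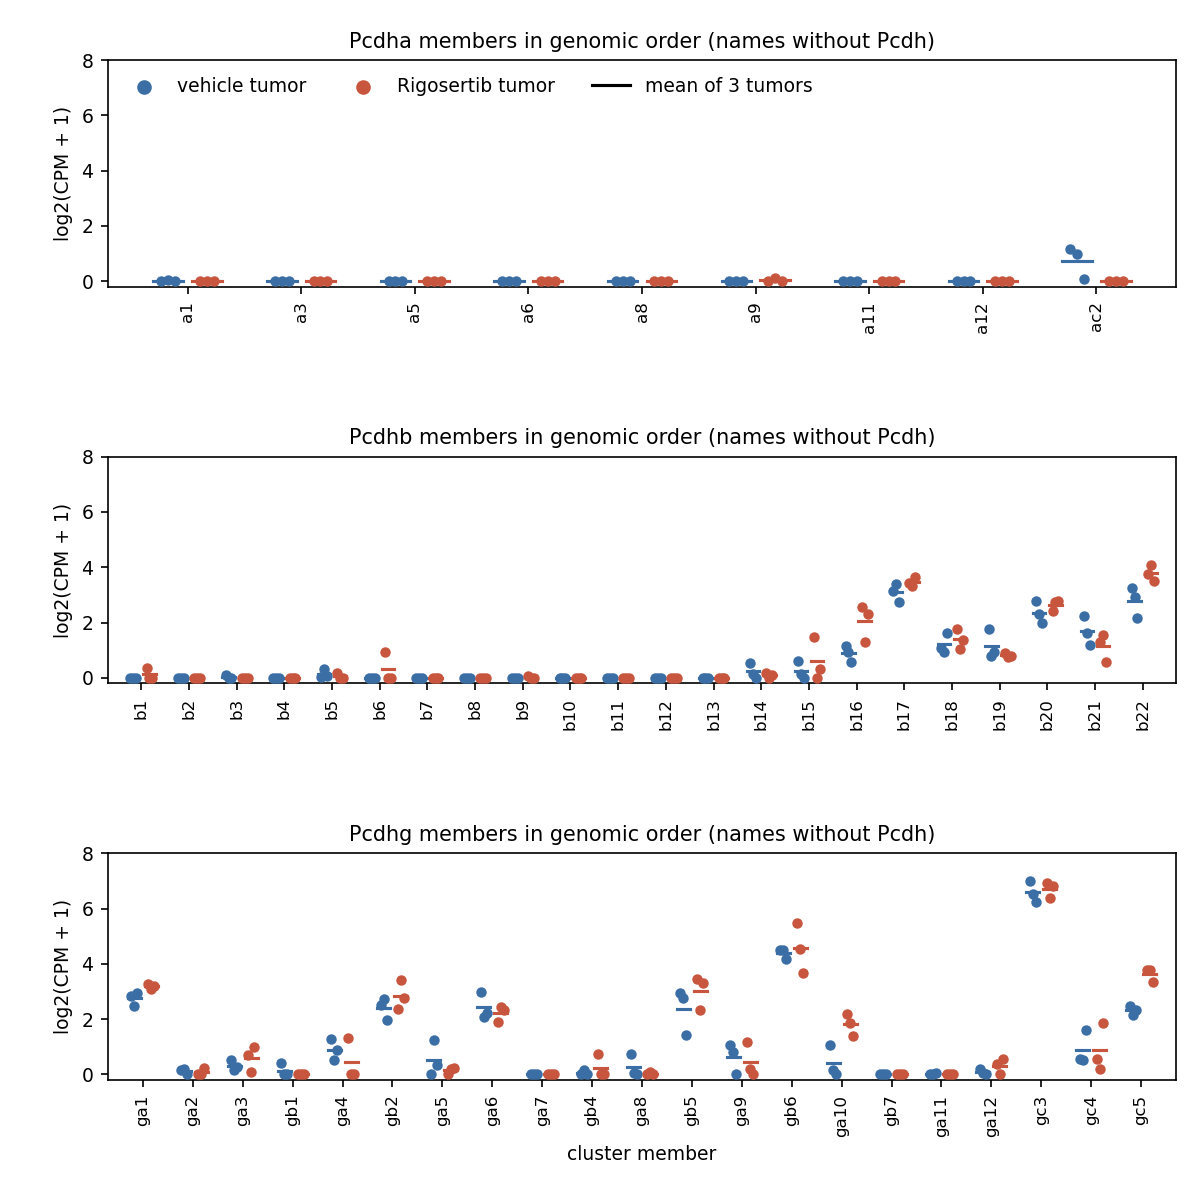
Level of every clustered protocadherin as log2(CPM + 1) (y axis), with the genes of each cluster in genomic order (x axis) and 1 panel each for alpha, beta and gamma; points are tumors (blue vehicle, red RGS), lines the mean of 3 log values. Alpha genes other than *Pcdhac2* and beta genes up to *Pcdhb13* lie at or near 0, and *Pcdhgc3* is the highest gamma gene in both groups.

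The gamma cluster held most of the clustered counts: 183, 139 and 115 CPM with vehicle and 212, 147 and 166 CPM with RGS (146 ± 34.4 against 175 ± 33.4 CPM, SD, n = 3), with overlapping groups. *Pcdhgc3*, the C-type gene that binds Axin1 and promotes dendrite branching in cortical neurons, came first in every tumor with 56.5% to 68.9% of the gamma counts. It had 126, 91.3 and 75.2 CPM with vehicle and 121, 82.8 and 112 CPM with RGS. The groups overlapped, and *Pcdhgc3* was not called (log2 fold change 0.11 ± 0.20 (SE), adjusted p = 0.709, edgeR). An antisense gene, BC037039, overlaps its exons, with 1, 8 and 2 counts with vehicle and 39, 4 and 48 counts with RGS. *Pcdhgb6* came second in every tumor, with 21.8, 21.7 and 17.2 CPM with vehicle and 44.2, 22.2 and 11.7 CPM with RGS. The vehicle tumors were alike and lay inside the spread of the RGS tumors, and the gene was not called (log2 fold change 0.37 ± 0.33 (SE), adjusted p = 0.429, edgeR).

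*Pcdhgc5*, the last C-type gene of the cluster, was the gamma gene that rose. It had 4.57, 3.46 and 3.999 CPM with vehicle and 12.8, 12.7 and 9.24 CPM with RGS. The lowest RGS tumor was above the highest vehicle tumor, and the rise was 2.89-fold (log2 fold change 1.53 ± 0.35 (SE), adjusted p = 0.00250, edgeR). The call held in all 17 other fits, with log2 fold changes of 1.45 to 1.65 when 1 tumor was left out. *Pcdhgc5* ranked 3 among the gamma genes in all 3 RGS tumors and in none of the vehicle tumors, where *Pcdhga6*, *Pcdhgb5* and *Pcdhga1* took that place. Its share of gamma counts was 2.50%, 2.48% and 3.49% with vehicle and 6.06%, 8.69% and 5.56% with RGS. Of its 7627 exon bases, 4606 belong to no other gene on that strand, and no antisense gene overlaps them. *Pcdhgc4*, which neurons need for survival, had 0.485, 0.428 and 2.02 CPM with vehicle and 0.473, 0.151 and 2.63 CPM with RGS. Its tumors were as different within as between the groups, and it was not called (log2 fold change 0.16 ± 1.16 (SE), adjusted p = 0.933, edgeR).

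Of the 12 gamma A genes 8 were tested and of the 6 gamma B genes 3, and none of these passed the threshold with edgeR. At an unadjusted p under 0.05 there was 1, *Pcdhga10*. DESeq2 and limma voom called it on the same filtered genes, and edgeR did not. The summed levels were 18.1, 10.8 and 11.7 CPM with vehicle and 18.8, 15.0 and 15.8 CPM with RGS for gamma A, and 33.6, 33.4 and 21.8 CPM with vehicle and 58.9, 35.9 and 26.5 CPM with RGS for gamma B. The other 14 tested clustered genes, which leave out the called genes, the C-type genes and *Pcdhb17*, *Pcdhb20* and *Pcdhgb6*, had log2 fold changes from −2.29 to 2.64, 8 above 0 and 6 below, mean levels of 0.159 to 7 CPM, and adjusted p from 0.0566 to 0.886. *Pcdhga10* and *Pcdhga1*, picked after their values were seen, had groups that did not overlap. *Pcdhga1* had 6.19, 4.63 and 6.62 CPM with vehicle and 8.76, 7.53 and 8.26 CPM with RGS (log2 fold change 0.49 ± 0.36 (SE), adjusted p = 0.312, edgeR). *Pcdhga10* passed the filter through the RGS group only. It had 39, 3 and 0 counts with vehicle and 75, 35 and 27 counts with RGS (log2 fold change 2.64 ± 1.17 (SE), adjusted p = 0.0908, edgeR). Without vehicle replicate 7 it was called (log2 fold change 5.40). Its exons have no base free of other genes once both strands are considered, and the overlapping antisense gene Gm26672 had 1, 3 and 9 counts with vehicle and 27, 3 and 0 counts with RGS. *Pcdhga4* was called only without RGS replicate 10, the single RGS tumor with counts of it. Some members, also picked after their values were seen, were counted mainly in 1 tumor: *Pcdhgb1* had 12 counts in vehicle replicate 7 and none elsewhere, *Pcdhga8* had 24 counts there and at most 1 in any other tumor, and *Pcdhgb4* had 14 counts in RGS replicate 10 and at most 3 elsewhere.

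**Figure D4:**
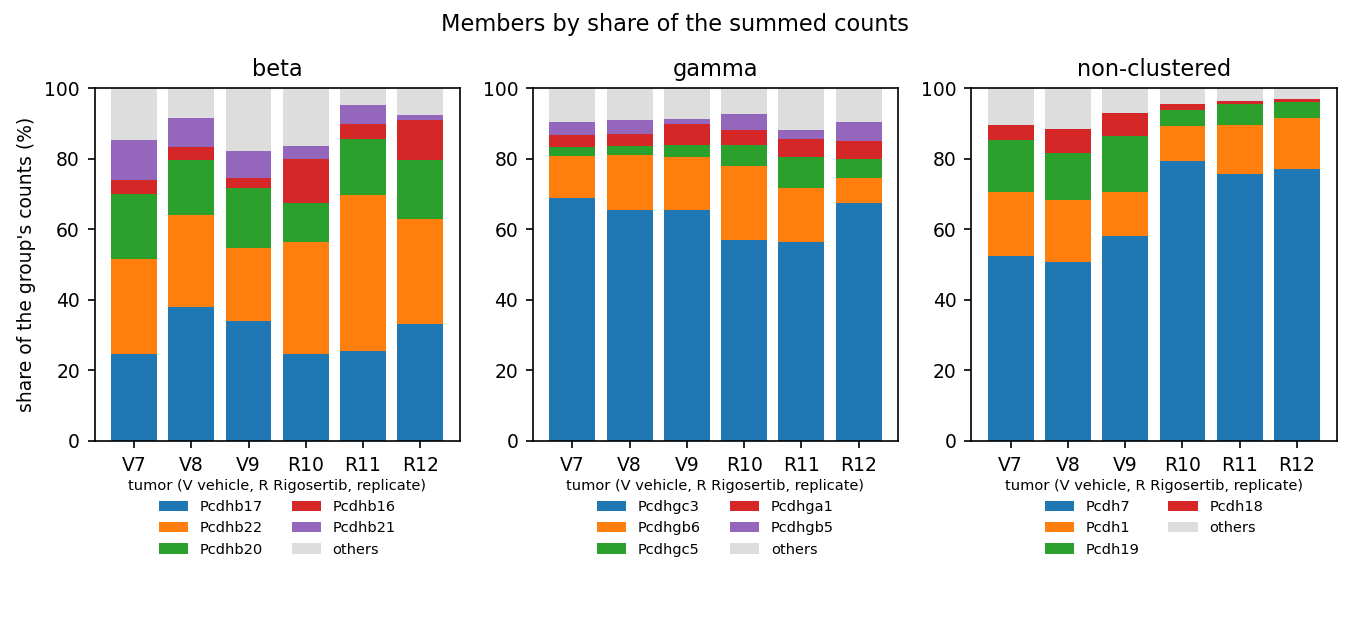
Share (y axis, percent) of the summed counts of the beta, gamma and non-clustered genes held by the leading genes (colors) in each tumor (x axis, V vehicle, R RGS, with replicate number), with all other genes in gray. *Pcdhgc3* holds 56.5% to 68.9% of the gamma counts, and *Pcdh7* goes from at most 58.1% of the non-clustered counts with vehicle to at least 75.6% with RGS.

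Levels of different genes were compared per kilobase of exon (CPM per kilobase, as the length differs from gene to gene). *Pcdh7* had 10.7 to 13.8 CPM per kilobase with vehicle and 33.5 to 42.2 with RGS. *Pcdhgc3* had 13.7 to 22.9 with vehicle and 15.1 to 21.95 with RGS. On the length in the count table, *Pcdhgc3* was above *Pcdh7* within each vehicle tumor, although the ranges of the genes met at 13.7 to 13.8, and below it within each RGS tumor, where the ranges were apart. *Pcdh1* and *Pcdhgb6* followed, at 3.00 to 5.73 and 3.66 to 4.66 with vehicle, so they could not be ordered there on the length in the count table. *Pcdh19* (2.84 to 3.95 with vehicle) and *Pcdh18* (2.27 to 2.89) overlapped as well. Part of the exon length of *Pcdhgc3* and *Pcdhgb6* is shared with other genes. On the exon length that no other gene shares on the same strand, the mean over 6 tumors was 30.0 CPM per kilobase for *Pcdhgc3* (18.4 on the full length) and 9.02 for *Pcdhgb6* (4.94 on the full length). *Pcdhgb6* then had 8.515, 8.48 and 6.69 with vehicle, above *Pcdh1* in each vehicle tumor. With RGS it had 17.2, 8.66 and 4.56, above *Pcdh1* in replicates 10 and 11 and below it in replicate 12. On that length *Pcdhgc3* had 37.2, 27.0 and 22.2 CPM per kilobase with vehicle and 35.7, 24.5 and 33.1 with RGS, above *Pcdh7* in each vehicle tumor and below it in each RGS tumor (42.2, 33.9 and 33.5 for *Pcdh7* on its full length), by little in RGS replicate 12. Of these 3380 bases of *Pcdhgc3*, 1821 are free of other genes when both strands are considered, and with the strand setting not known its level per kilobase is uncertain.

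The other cadherins are given as the wider superfamily of these genes. Of 45 genes of the other cadherin families (classical cadherins, desmosomal cadherins, Fat, Dchs, Celsr and calsyntenins), 15 had no counts and 19 were tested. Of these, 7 rose (36.8%, beside 16.3% of all tested genes) and none fell. Lower genes numbered 0 at an unadjusted p under 0.05, 0 with DESeq2 and 0 with limma voom, and 1 without RGS replicate 12. The median log2 fold change was 0.67, beside −0.05 over all genes. *Cdh6*, a cadherin of kidney and neural crest, had 18.6, 12.9 and 11.6 CPM with vehicle and 151, 139 and 148 CPM with RGS (log2 fold change 3.34 ± 0.20 (SE), adjusted p = 6.94e-10, edgeR). *Cdh5*, the cadherin of endothelial junctions, had 0.685, 0.249 and 0.731 CPM with vehicle and 5.68, 2.71 and 10.2 CPM with RGS (log2 fold change 3.47 ± 0.68 (SE), adjusted p = 6.37e-04, edgeR). The summed endothelial list, which includes *Cdh5*, was at 2.49 to 4.10 CPM with vehicle and 6.33 to 13.8 CPM with RGS. Most of this difference was *Cdh5* itself, the 1 called gene of 4 tested in the list. *Vwf* and *Pecam1* pointed up and *Tek* down, and they were not called (adjusted p = 0.723, 0.351 and 0.431, edgeR). *Dchs1*, the ligand of Fat4, had 59.1, 38.0 and 32.7 CPM with vehicle and 99.9, 122 and 109 CPM with RGS (log2 fold change 1.35 ± 0.20 (SE), adjusted p = 5.37e-05, edgeR). *Cdh24* also rose, with 2.91, 4.70 and 2.32 CPM against 9.61, 13.9 and 4.71 CPM (log2 fold change 1.499 ± 0.45 (SE), adjusted p = 0.0152, edgeR). These 4 had no overlap between the groups, by the narrowest margin for *Cdh24*.

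Of 47 genes for partners and regulators of protocadherins, 44 were tested, 12 rose (27.3%, beside 16.3% of all tested genes) and 5 fell (11.4%, beside 16.5%), with a median log2 fold change of −0.08, where all genes had −0.05. Among 22 genes of promoter choice and chromatin, 3 rose and 3 fell (13.6% in each direction), near the shares over all tested genes. The cohesin subunit gene *Rad21* fell from 414, 405 and 383 CPM with vehicle to 239, 187 and 195 CPM with RGS (log2 fold change −0.95 ± 0.15 (SE), adjusted p = 1.02e-04, edgeR), and *Pds5b*, which regulates cohesin on DNA, from 58.4, 51.7 and 56.8 CPM to 33.7, 24.0 and 19.0 CPM (log2 fold change −1.12 ± 0.21 (SE), adjusted p = 4.71e-04, edgeR). *Ctcf*, picked after its values were seen because it directs promoter choice in the clusters, was not called (log2 fold change −0.09 ± 0.18 (SE), adjusted p = 0.748, edgeR).

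Among 9 listed genes of the WAVE complex, which delta-2 protocadherins bind, 1 rose and 2 fell (33.3% called, beside 32.8% of all tested genes). *Cyfip2* had 3.40, 2.28 and 5.25 CPM with vehicle and 6.68, 8.14 and 9.79 CPM with RGS (log2 fold change 1.17 ± 0.42 (SE), adjusted p = 0.0399, edgeR). *Abi1* had 185, 178 and 182 CPM with vehicle and 103, 94.3 and 111 CPM with RGS (log2 fold change −0.82 ± 0.15 (SE), adjusted p = 3.56e-04, edgeR), and *Abi2* 43.2, 34.3 and 29.9 CPM and 22.3, 15.5 and 17.1 CPM (log2 fold change −0.97 ± 0.23 (SE), adjusted p = 0.00275, edgeR). The Abi genes are subunits of the same complex and both fell without overlap. Of 11 genes for kinases and other cytoplasmic partners, 8 were tested and 5 rose (62.5%, beside 16.3% of all tested genes), among them *Cdh2* (N-cadherin), which is also 1 of the 7 higher cadherins. *Ptk2b*, the kinase Pyk2 that clustered protocadherins inhibit, had 48.3, 29.6 and 28.3 CPM with vehicle and 66.7, 79.3 and 80.3 CPM with RGS (log2 fold change 1.09 ± 0.21 (SE), adjusted p = 5.01e-04, edgeR).

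Of 5 listed genes for the proteases that cleave protocadherins, ADAM10 and gamma-secretase, 3 rose (60.0%, beside 16.3% of all tested genes). *Psen2*, which encodes a subunit of gamma-secretase, had 7.79, 4.17 and 2.58 CPM with vehicle and 9.47, 9.04 and 13.2 CPM with RGS, without overlap (log2 fold change 1.12 ± 0.41 (SE), adjusted p = 0.0427, edgeR). Over all partners and regulators the number of higher genes went from 12 to 7 without vehicle replicate 8 or vehicle replicate 9, and the number of lower genes stayed at 5 whichever tumor was left out.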

How the data were processed

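The data are read counts per gene from RNA sequencing of 6 tumors, 3 vehicle and 3 RGS, grouped by the sample titles. The authors aligned the reads with STAR and deposited raw counts without normalization. The submitters' processing notes name STAR 2.7.1a, cutadapt 1.18, FastQC 0.11.7, featureCounts 1.6.4 and the build mm10, without giving the order of the steps. The sources used here do not give the strand setting of the counting or what became of reads matching more than 1 gene. GENCODE M21 holds 69 protein-coding *Pcdh* genes, and 64 of them had a row used here. *Pcdha2*, *Pcdha4*, *Pcdha7* and *Pcdhac1* are among those without a row and were not analysed.

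Counts were scaled with TMM and fitted over the whole table with edgeR 4.0.16 in R 4.3.3 (glmQLFit and glmQLFTest, called at an adjusted p under 0.05 over 15355 genes). CPM are TMM-scaled, and each SE was computed from the fold change and its F statistic. The script was tested on simulated data. A floor of 3 counts was 0.0856 to 0.226 CPM, depending on the library. An exact permutation of 3 against 3 tumors cannot reach below p = 0.1, so it was not used, and cluster sums and shares have no test. Exon sharing came from GENCODE M21, and promoters from RefSeq, with entries for 9 *Pcdh* genes. No promoter from chromosome 18 is printed.

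Values in every tumor are given for each tested non-clustered gene, each tested C-type gene, each called clustered gene, the 3 genes of highest mean count per cluster, and up to 4 called genes per direction of the cadherin and partner lists (largest log2 fold change, mean of at least 1 CPM). Other genes are marked where named. Of the genes this rule takes, 1 is not reported here. The genes, lists and tests were chosen with earlier results of these data known. The alternatives were DESeq2 1.42.0, limma voom (limma 3.58.1), robust dispersions, RLE, upper-quartile and library-total scaling, 3 other filters, a minimum size of 1 on the log2 scale, thinned counts, mitochondrial genes left out, each tumor left out, and, for levels per kilobase, the exon length not shared on the same strand.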

Additional observations from a re-analysis of the deposited data

How the results depend on the processing

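Over the 29 tested protocadherins and all alternatives, single log2 fold changes kept their direction and side of the threshold in 442 cases, lost the threshold in 17, passed it newly in 9 and changed sign in 12, all of them uncalled genes. Those were *Pcdhgc3* with library totals alone (−0.037), *Pcdhgc4* with limma voom (−0.15), and, with 1 tumor left out, *Pcdhgc3* (−0.042 to 0.34), *Pcdhgc4* (−1.62 to 1.24), *Pcdhgb6* (−0.27 to 0.70), *Pcdhga9* (−3.02 to 0.36), *Pcdhga6* (−0.49 to 0.10) and *Pcdhb18* (−0.046 to 0.72). With library totals alone, higher protocadherins numbered 3 in place of 5, higher clustered genes 1 in place of 2 and higher partners and regulators 6 in place of 12. DESeq2 called 4 clustered genes higher. With counts thinned to the smallest library, 28 protocadherins were tested, of which 6 were higher and 3 lower, where the main fit had 5 and 3 of 29. The lower clustered gene (*Pcdhac2*) was not called (0 genes) with limma voom, with filterByExpr or with a mean of at least 1 CPM, since it was removed by both filters. A minimum change of 1 on the log2 scale left 4 higher cadherins in place of 7, 4 higher partners in place of 12 and 1 lower partner in place of 5. On the exon length not shared on the same strand, *Pcdhgc3* was at 30.0 and *Pcdhgb6* at 9.02 CPM per kilobase.

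When each tumor was left out in turn, protocadherins numbered 3 to 6 higher and 1 to 3 lower, clustered genes 1 to 3 higher and 0 to 1 lower, non-clustered genes 2 to 3 higher and 1 to 2 lower, cadherins 6 to 8 higher and 0 to 1 lower, and partners 7 to 12 higher and 5 lower. The log2 ratio of the summed counts ranged from 0.36 to 0.80 for beta, 0.10 to 0.46 for gamma and 0.98 to 1.21 for the non-clustered genes. No paired analysis was possible because the groups share no replicate number. The alpha genes with a row other than *Pcdhac2*, and *Pcdhb1* to *Pcdhb13*, had too few counts to pass the filter and were not tested. The cause of changes with the scaling was not tested.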

Other observations

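Genes between and beside the clusters on chromosome 18 were looked at after the results were seen. The long noncoding RNA 3222401L13Rik had 39, 23 and 45 counts with vehicle and 106, 38 and 77 counts with RGS, and it was higher with RGS (log2 fold change 1.71 ± 0.64 (SE), adjusted p = 0.0465, edgeR's quasi-likelihood test). On the CPM scale it was at 1.11, 0.820 and 1.94 with vehicle and 5.02, 2.86 and 4.71 with RGS, without overlap. The protein-coding neighbours did not pass the threshold. *Taf7*, a subunit of the general transcription factor TFIID, had a log2 fold change of −0.23 (adjusted p = 0.632), *Slc25a2*, a mitochondrial ornithine transporter, 0.68 (adjusted p = 0.756), and *Diaph1*, an actin-nucleating formin, 0.03 (adjusted p = 0.923). *Diaph1* had 72.0 to 100.4 CPM with vehicle and 79.5 to 89.6 CPM with RGS.

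*Pcdhgb8*, which the count table does not class as protein-coding, had no counts with vehicle and 16, 0 and 2 counts with RGS. BC037039, antisense to *Pcdhgc3*, was higher with RGS (log2 fold change 3.63 ± 1.32 (SE), adjusted p = 0.0420, edgeR), while *Pcdhgc3* itself was not called. This call rests on few counts: RGS replicate 11 had 4 counts (0.301 CPM) and vehicle replicate 8 had 8 counts (0.285 CPM).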
